A study of Solanum lycopersicum with 9 samples.

Results

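The transcription class is the set of genes that the study's annotation filed under transcription among the genes it found to respond to an ammonium patch in soil. It was read from the study's list of 607 responding probe sets, of which 54 carry this class. The 5 that encode EIL3, CBF1, JA2 or an ANR1-like MADS-box factor, or that are titled as histones or heat shock genes, were left out by rule, and 49 members remained among 10038 tomato probe sets on the array. A gene or a regulator family was named for 30 members. The other 19 have no named gene and are called unnamed members A to S here, in order of their difference between high NH4+ and water from the lowest to the highest. The study chose the members on these same arrays and on the comparisons described here, so their differences between treatments are a description, and the tests cited with them are no independent evidence.

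All samples were roots of wild-type tomato of cultivar 76R, grown in field soil in a glasshouse and harvested from a buried soil ring (the patch) 53 h after injection. The injection gave the patch water alone, a low dose of 6.5 μg or a high dose of 65 μg of NH4+ nitrogen per g soil, and each of the 3 treatments had 3 biological replicates on an array each. The roots were colonised by mycorrhizal fungi, and RNA came from whole patch roots, so fewer cells of a type and less RNA per cell cannot be told apart in any value below. Values are log2 of the array signal.

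Transcription factors bind short DNA motifs near genes and raise or lower their transcription, and each family is known by its DNA-binding domain. Coregulators and chromatin proteins act with them without choosing the target on their own, and RNA-binding proteins and ribonucleases act after the transcript is made. In roots, such regulators are known to link nutrient supply to uptake, as FER does for iron. Others act in hormone responses, as the Aux/IAA repressors do for auxin and TGA-type bZIP factors for salicylic acid.

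The arrays differed in ways that touch these values. The median over the 6670 probe sets tested ran between 8.49 and 8.73 in water, 8.31 and 8.44 in low NH4+, and 8.47 and 8.57 in high NH4+. A first principal component took up 37.8% of the variance, and low NH4+ replicate 2 (52.7) and water replicate 3 (-40.3) lay at its ends. The difference between the 3′ and 5′ control probe sets of actin, which grows as RNA breaks down, was 0.43 to 0.85 in water, 0.88 to 3.00 in low NH4+ and 0.76 to 1.17 in high NH4+. Of 4 probe sets for root uptake genes, PT1 and AMT1-2 were above a signal of 100 on all arrays, PT2 on some and FRO1 on none. Of 3 chlorophyll-binding protein probe sets, which mark leaf material, CAB5 and CAB6A stayed below 100 on all arrays. The summed signal of these leaf probe sets, of which CAB4 gave 70.7% to 95.2%, was 176 to 357.5 in water, 80.1 to 174 in low NH4+ and 72.1 to 196.5 in high NH4+ roots. This sum lay just below the water range in low NH4+ and overlapped with it in high NH4+. Most members were lower with NH4+, and the part of leaf material or RNA quality in their values was not tested.

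**Figure D1:**
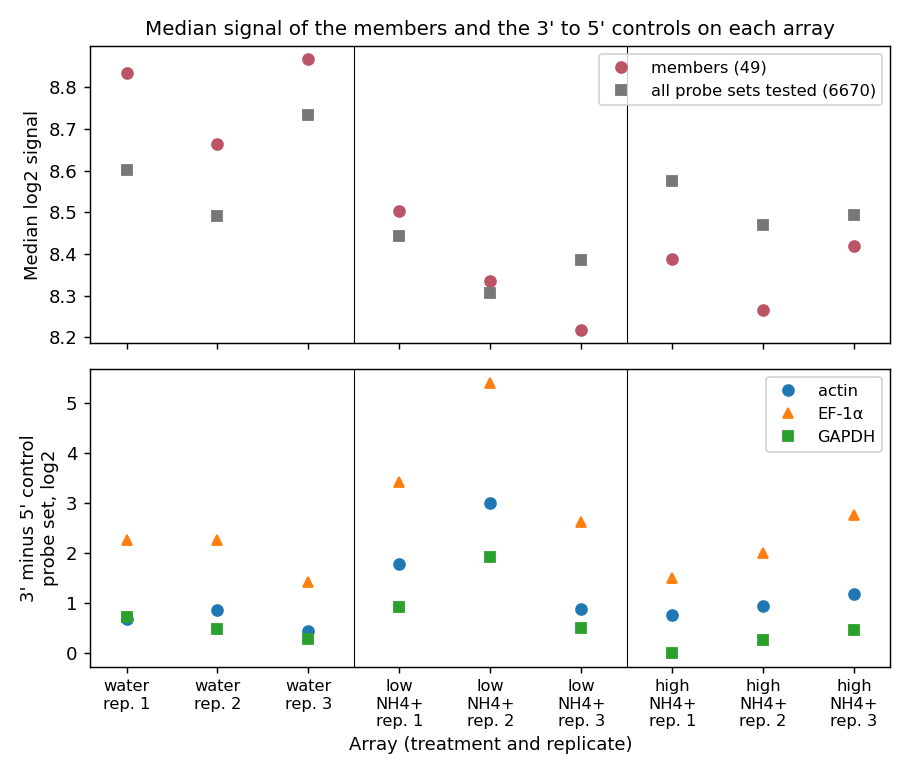
The upper panel plots the median log2 signal of the 49 members (circles) and of all 6670 probe sets tested (squares) on each array, and the lower panel the difference between the 3′ and 5′ control probe sets of actin, EF-1α and GAPDH (log2). The members' median is above that of all probe sets on the 3 water arrays and below it on the 3 high NH4+ arrays, and the controls' difference is highest on low NH4+ replicate 2.

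Most members were lower where NH4+ had been added. In high NH4+ roots 40 members had a lower mean than in water and 9 a higher one, where 57.5% of all probe sets tested were lower. No member changed sign in this comparison when the arrays were scaled by quantiles or by their medians. In low NH4+ roots 41 members were lower than in water, beside 64.75% of all probe sets. After median centring 29 were lower there, beside 33.91%. The median of the members' log2 fold changes was -0.65 in high NH4+ against water, beside -0.08 over all probe sets tested, and -0.45 in low NH4+ against water, beside -0.16. The median signal over the members was 8.84, 8.66 and 8.87 in water, 8.50, 8.33 and 8.22 in low NH4+ and 8.39, 8.27 and 8.42 in high NH4+ roots. All 6 NH4+ arrays thus lay below all 3 water arrays in this median. Median centring moved the fold changes of all probe sets by 0.12 in high NH4+ and by 0.36 in low NH4+ against water, so that the members' medians became -0.54 and -0.085, beside 0.04 and 0.20 over all probe sets.

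**Figure D2:**
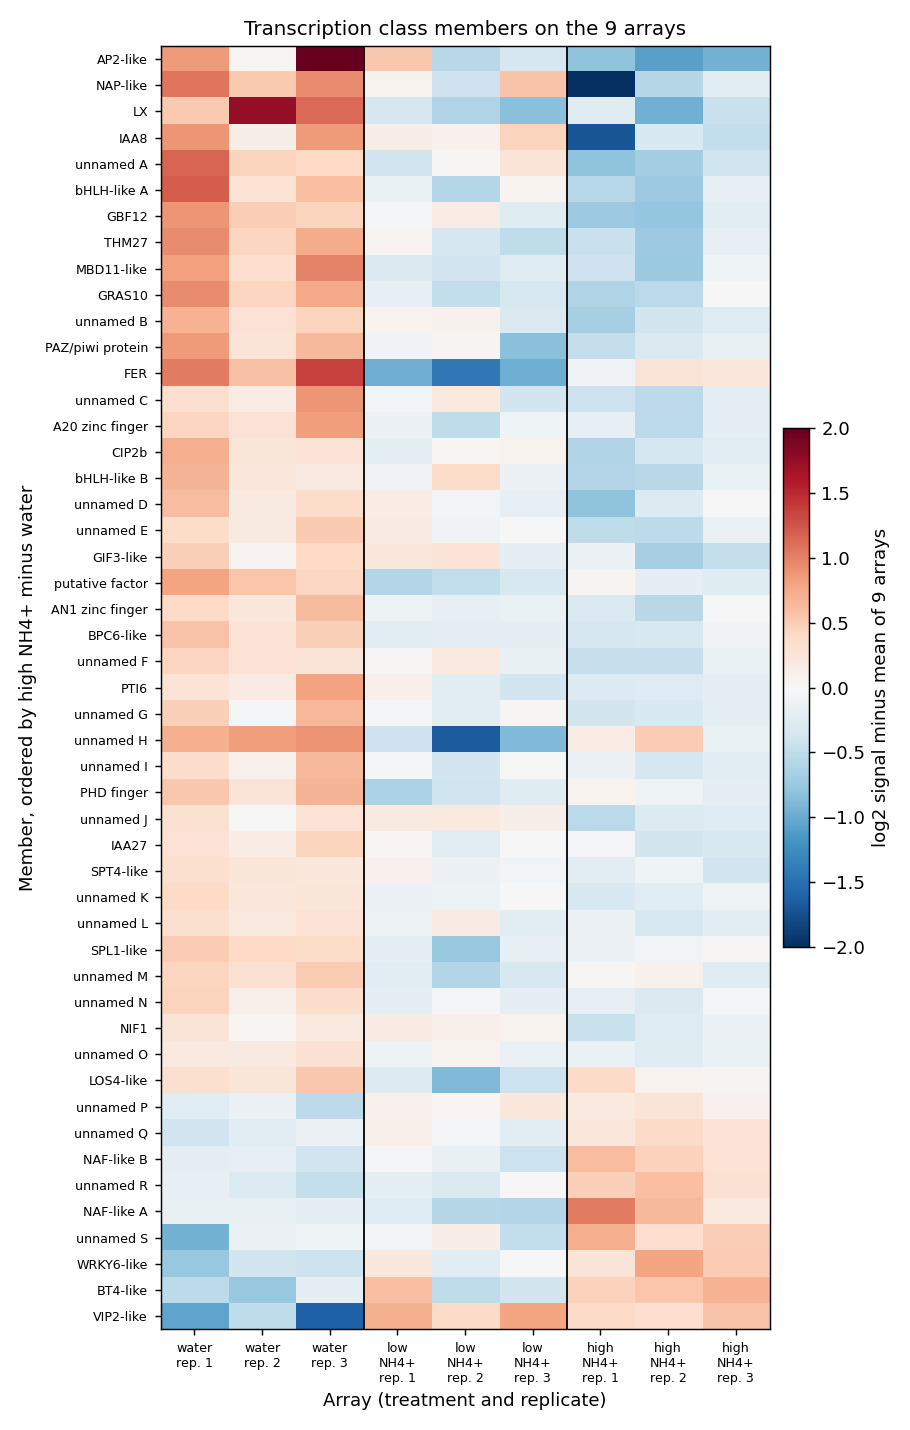
Log2 signal of the 49 members (rows, ordered by high NH4+ minus water) on the 9 arrays (columns), each shown as its distance from the member's mean over the 9 arrays, with the colour scale ending at 2 on either side. The upper 40 rows are mostly red in water and mostly blue in high NH4+, and the lower 9 rows run the other way.

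At a false discovery rate of 10% (limma), 29 members passed the test in high NH4+ against water, 6 higher and 23 lower. Over all probe sets tested the share called in this comparison was 6.52%, with 2.73% called higher and 3.79% lower. In low NH4+ against water 13 members passed, 1 higher and 12 lower, where 2.98% of all probe sets were called, 0.54% higher and 2.44% lower. Between high and low NH4+ 2 members passed, both higher in high NH4+, where 0.9% of all probe sets were called, 0.84% higher and 0.06% lower. Since the study chose the members on these comparisons, nothing is read from the members' counts against these shares. Both NH4+ treatments were set against the same 3 water arrays. In at least 1 comparison 34 members passed, 15 passed in none, and 8 passed in both NH4+ treatments against water.

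These counts rested on few arrays. In high NH4+ against water leaving out high NH4+ replicate 1 or 2 left 0 members called, although 45 and 44 still had an unadjusted p under 0.05 in limma there. Leaving out water replicate 1 left 1 member called, water replicate 3 left 3, and low NH4+ replicate 1 left 18. In low NH4+ against water 18 members passed once water replicate 2 was left out and 16 once low NH4+ replicate 3 was, while leaving out any 1 of the remaining 7 arrays left between 1 and 4. After median centring 7 members were called higher and 12 lower in high NH4+, and 2 higher and 3 lower in low NH4+, against water. Of the 29 calls in high NH4+ 18 were kept there and 11 lost. Of the 13 in low NH4+ 4 were kept, those of FER, VIP2-like, LX and unnamed member H, and 9 lost. No comparison of high with low NH4+ called a member after median or quantile scaling, where 21 and 19 members had an unadjusted p under 0.05.

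All 49 members passed the filter on low signal, in part through the group where they were high. On the water arrays each of them reached a signal of 100, while 42 to 47 of them did on an array of low NH4+ and 42 to 46 on an array of high NH4+. The groups did not overlap for 48 members in high NH4+ against water, 39 of them lower and 9 higher. Over all probe sets tested the groups did not overlap for 33.0%, with 19.6% lower and 13.4% higher. In low NH4+ against water 35 members did not overlap, 32 lower and 3 higher, beside 25.3% of all probe sets, 17.5% lower and 7.78% higher. In high against low NH4+ 20 members did not overlap, 12 higher and 8 lower, beside 24.7% of all probe sets, 15.1% higher and 9.64% lower.

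In their group means, most members were ordered by dose. The mean was highest in water, lower in low NH4+ and lowest in high NH4+ for 32 members, an order that 1337 of the 6670 probe sets tested showed. It was lowest in water and highest in high NH4+ for 7 members, beside 12.6% of all probe sets. The other 10 members, among them the only 2 called between high and low NH4+ (FER and NAF-like A), broke this order. Low NH4+ was the lowest group and water the highest for 8 of them, including FER, LX, LOS4-like, the PHD finger protein and SPL1-like. NAF-like A was lowest in low and highest in high NH4+, and the VIP2-like gene was highest in low NH4+. Median centring adds 0.36 to every log2 fold change of low NH4+ against water. It thereby turned the sign of the 12 members that lay between -0.36 and 0, among them NIF1, IAA27, GIF3-like, SPT4-like and bHLH-like B. For all of these but NAF-like A, which had not followed it, this ended the falling order by dose. Quantile scaling turned the sign of NIF1 and NAF-like A.

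**Figure D3:**
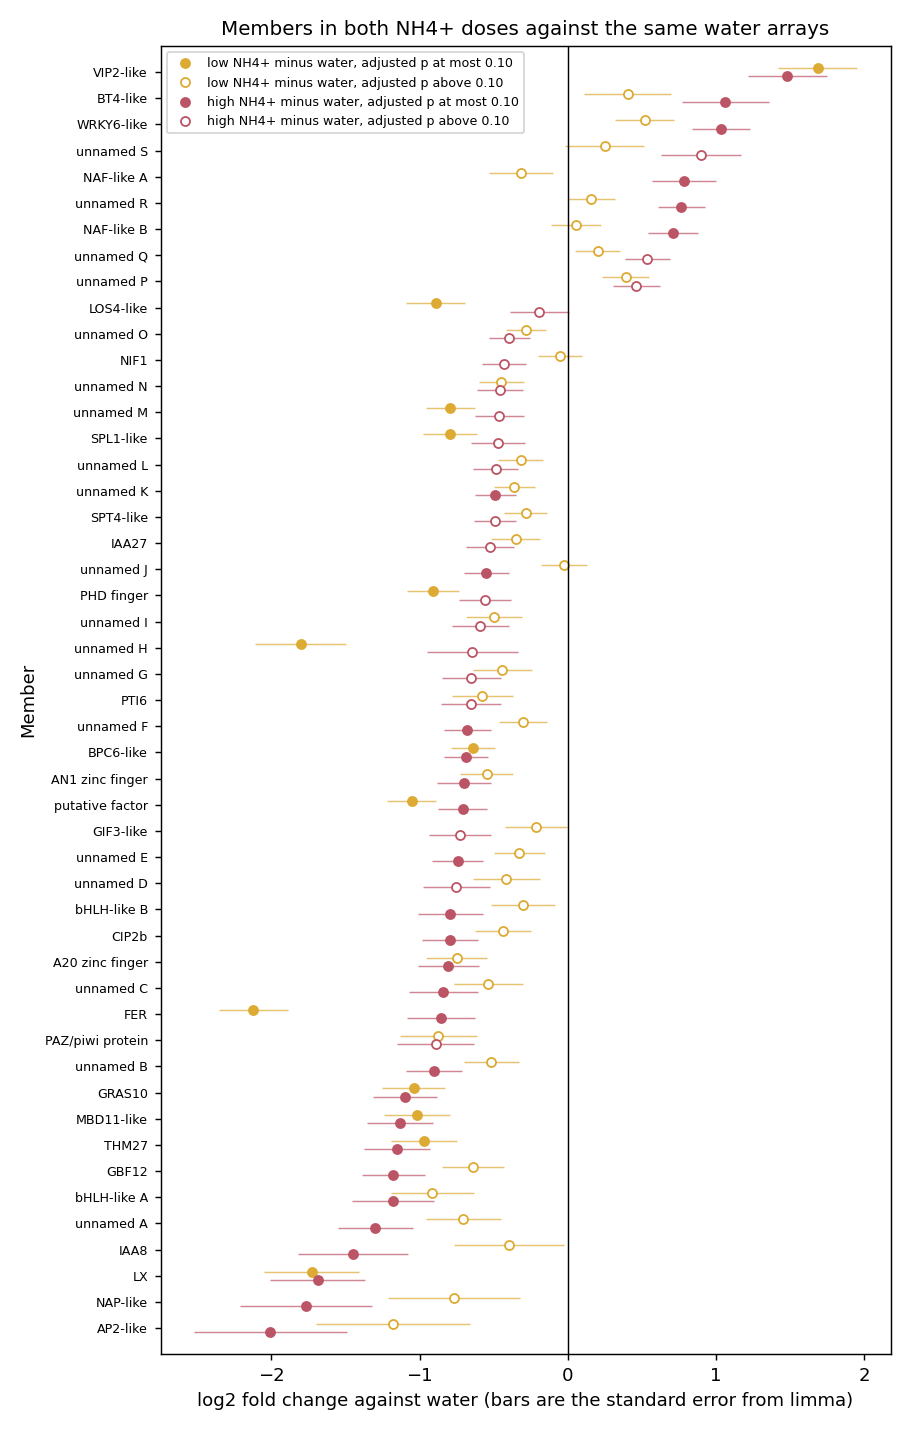
Log2 fold change of each member in low NH4+ minus water and in high NH4+ minus water, with standard errors from limma, where filled circles have an adjusted p of at most 0.10. FER at -2.12 and unnamed member H at -1.80 are farther below water in low NH4+ than in high NH4+ (-0.86 and -0.64), while IAA8 (-1.45) and NAP-like (-1.77) are farther below it in high NH4+ (-0.40 and -0.77 in low NH4+).

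The basic helix-loop-helix (bHLH) members were all lower in high NH4+ than in water. FER, the tomato bHLH regulator of iron uptake in roots, had a signal of 8.41, 7.96 and 8.75 in water, 6.40, 5.95 and 6.40 in low NH4+ and 7.31, 7.64 and 7.59 in high NH4+ roots. The 3 groups did not overlap and low NH4+ was the lowest. Its log2 fold change was -2.12 (SE 0.23) in low NH4+ against water, 0.230 of the water signal, and -0.86 (SE 0.23) in high NH4+ against water. All 3 low NH4+ arrays lay below a signal of 100, and with such signals set to 100 the log2 fold change in low NH4+ was -1.73 and stayed called. FER was 1 of the 2 members called between high and low NH4+, by 1.27 (SE 0.23). Of all calls among the members, that of FER in low NH4+ was the only one that leaving out any single array did not end (adjusted p from 0.00783 to 0.0910 in limma), but it ended when low NH4+ replicate 2 and water replicate 3 were both left out (adjusted p = 0.117). The call of FER between high and low NH4+ ended after median centring (adjusted p = 0.106), after quantile scaling (adjusted p = 0.125) and with signals under 100 set to 100 (adjusted p = 0.115). The ferric chelate reductase FRO1, an iron uptake gene, had a signal below 100 on every array.

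The other 2 bHLH members, called bHLH-like A and B here, are known only by likeness to Arabidopsis proteins. The first, bHLH-like A, had a signal of 8.11, 7.18 and 7.51 in water, 6.77, 6.33 and 6.97 in low NH4+ and 6.35, 6.18 and 6.74 in high NH4+ roots. All NH4+ arrays were below all water arrays, and the log2 fold change against water was -1.18 (SE 0.28) in high NH4+ and -0.91 (SE 0.28) in low NH4+. The second, bHLH-like B, had 9.02, 8.57 and 8.52 in water, 8.27, 8.71 and 8.22 in low NH4+ and 7.75, 7.78 and 8.20 in high NH4+ roots. Only the high NH4+ arrays were apart from water, with a log2 fold change of -0.79 (SE 0.22), since low NH4+ replicate 2 lay among the water arrays.

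The MYB member THM27 and the GRAS member GRAS10 were below water on all NH4+ arrays. THM27, a tomato R2R3 MYB factor, had a signal of 10.30, 9.79 and 10.09 in water, 9.41, 9.01 and 8.84 in low NH4+ and 8.91, 8.62 and 9.19 in high NH4+ roots. Its log2 fold change against water was -1.15 (SE 0.22) in high NH4+, 0.450 of the water signal, and -0.97 (SE 0.22) in low NH4+. The 2 NH4+ groups overlapped, with a difference of -0.18 (SE 0.22) between high and low NH4+. After median centring the high NH4+ call of THM27 stayed at -1.04 and the low NH4+ call was lost at -0.61 (adjusted p = 0.0561 and 0.149 in limma). GRAS10, of the plant GRAS family that includes the gibberellin-regulated DELLA repressors, had 8.58, 8.06 and 8.39 in water, 7.46, 7.14 and 7.31 in low NH4+ and 7.03, 7.08 and 7.62 in high NH4+ roots. Here too every NH4+ array was below every water array and the 2 doses overlapped. Its log2 fold change was -1.10 (SE 0.21) in high NH4+ and -1.04 (SE 0.21) in low NH4+, and -0.98 and -0.68 after median centring, where the second was no longer called (adjusted p = 0.118 in limma).

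The bZIP members were lowest in high NH4+. GBF12, a tomato factor that binds the G-box motif of promoters, had a signal of 8.18, 7.80 and 7.75 in water, 7.28, 7.46 and 7.07 in low NH4+ and 6.58, 6.53 and 7.09 in high NH4+ roots. The log2 fold change against water was -1.18 (SE 0.21) in high NH4+, which passed the test, and -0.64 (SE 0.21) in low NH4+, which did not. NIF1, a TGA-type factor that binds NPR1, the salicylic acid coactivator, had 9.32, 9.10 and 9.26 in water, 9.23, 9.17 and 9.14 in low NH4+ and 8.63, 8.82 and 8.95 in high NH4+ roots. Water and low NH4+ overlapped fully, and high NH4+ lay below both, with a log2 fold change of -0.43 (SE 0.15) against water that did not pass the test.

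AP2-like and NAP-like had the lowest fold changes of all members in high NH4+ against water, and the largest standard errors. The AP2-like member, similar to a putative Arabidopsis factor with an AP2 domain, had a signal of 8.09, 7.28 and 9.55 in water, 7.78, 6.70 and 6.92 in low NH4+ and 6.45, 6.16 and 6.30 in high NH4+ roots. The high NH4+ arrays were close together and below all others, while water replicate 3 was more than 1 log2 unit above the other water arrays. The log2 fold change was -2.01 (SE 0.52) in high NH4+ against water and became -1.38 without water replicate 3. Only 3 members passed the test without that array, and AP2-like was not among them. The 3 high NH4+ arrays lay below a signal of 100, and with such signals set to 100 the value was -1.67 and did not pass (adjusted p = 0.114 in limma). PTI6, an ERF that interacts with the resistance kinase Pto in tomato, had 10.13, 10.02 and 10.65 in water, 9.95, 9.63 and 9.48 in low NH4+ and 9.58, 9.60 and 9.66 in high NH4+ roots. It was below water on all NH4+ arrays, with a log2 fold change of -0.65 (SE 0.20) in high NH4+, but passed the test in no comparison.

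NAP-like, similar to an Arabidopsis NAC factor known from leaf senescence, had a signal of 7.86, 7.30 and 7.72 in water, 6.86, 6.37 and 7.34 in low NH4+ and 4.79, 6.22 and 6.58 in high NH4+ roots. All 3 high NH4+ arrays lay below a signal of 100, with replicate 1 far below the other 2. The log2 fold change in high NH4+ was -1.77 (SE 0.45), -0.98 with signals under 100 set to 100, and -1.23 without replicate 1, where no member passed the test. The same kind of spread was seen for a member titled IAA8 in the study's list, for which the annotation gave no symbol, so the name is uncertain. Aux/IAA proteins repress auxin response factors. IAA8 had 8.004, 7.23 and 7.97 in water, 7.25, 7.20 and 7.57 in low NH4+ and 5.42, 6.81 and 6.64 in high NH4+ roots. Water and low NH4+ overlapped. High NH4+ was below both. The log2 fold change against water was -1.45 (SE 0.37), and -1.01 without high NH4+ replicate 1, where no member was called.

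IAA27, the other Aux/IAA member, titled IAA6 by the array, varied little. Its signal was 8.34, 8.20 and 8.49 in water, 8.10, 7.83 and 8.05 in low NH4+ and 8.03, 7.69 and 7.74 in high NH4+ roots, with a log2 fold change of -0.52 (SE 0.16) in high NH4+ that did not pass the test. A second IAA27 probe set that is no member had signals below 100 on all 9 arrays, from 2.58 to 4.18, and so gave no check.

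**Figure D4:**
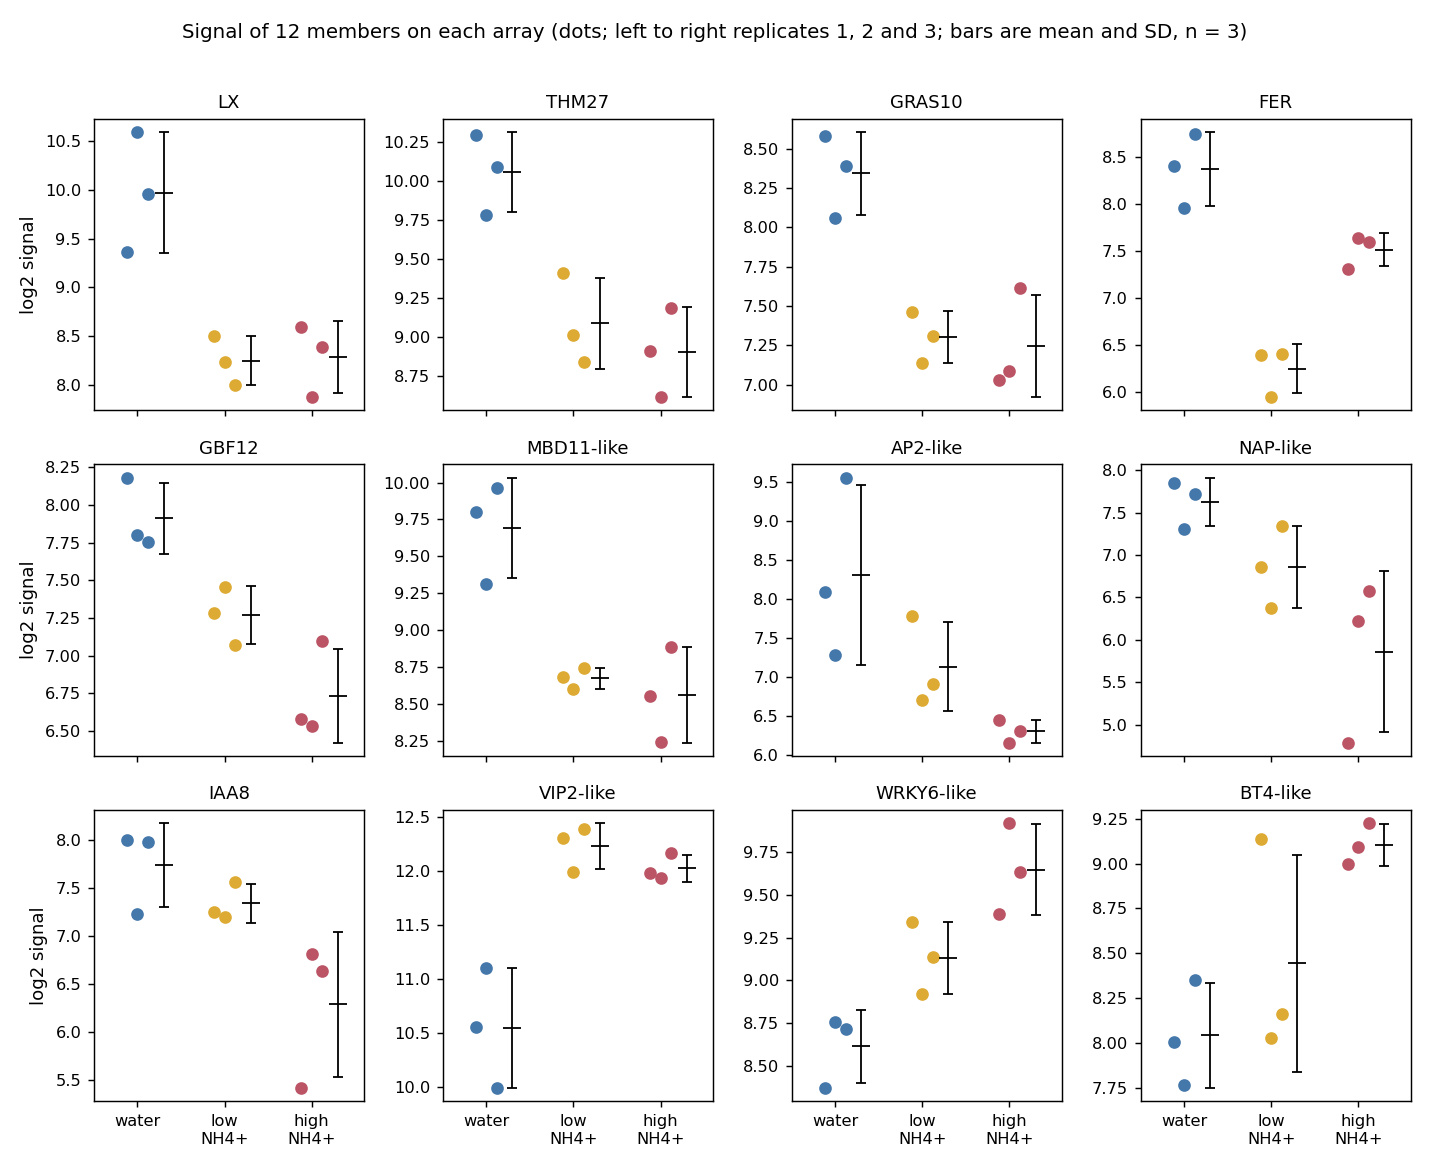
Log2 signal of 12 named members on each array (dots, with replicates 1, 2 and 3 from left to right) in water, low NH4+ and high NH4+ roots, with the mean and SD of each group (bars, n = 3). The vertical scales differ between panels. LX, THM27, GRAS10 and MBD11-like lie below all water arrays at both doses, FER is lowest in low NH4+, and high NH4+ replicate 1 lies below the other dots of NAP-like and IAA8.

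Further members fell at both doses or in low NH4+. BPC6-like, similar to an Arabidopsis protein that binds GA repeats, had a signal of 8.95, 8.66 and 8.87 in water, 8.15, 8.21 and 8.20 in low NH4+ and 8.05, 8.06 and 8.31 in high NH4+ roots. Against water its log2 fold change was -0.69 (SE 0.15) in high NH4+ and -0.64 (SE 0.15) in low NH4+, and it passed the test in both. Both calls were lost after median centring (adjusted p = 0.147 and 0.363 in limma), where the values were -0.57 and -0.28. A member similar to an Arabidopsis protein called only a transcription factor, shown as the putative factor in the plots, had 10.10, 9.87 and 9.73 in water, 8.73, 8.82 and 8.99 in low NH4+ and 9.37, 9.13 and 9.07 in high NH4+ roots. Its 3 groups did not overlap, with low NH4+ lowest at -1.05 (SE 0.16) and high NH4+ at -0.71 (SE 0.16) against water, and both calls were lost after median centring (adjusted p = 0.105 and 0.149 in limma).

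SPL1-like, similar to an Arabidopsis factor with an SBP domain, had a signal of 7.30, 7.19 and 7.17 in water, 6.60, 6.04 and 6.64 in low NH4+ and 6.68, 6.74 and 6.82 in high NH4+ roots. It passed the test in low NH4+ alone, at -0.79 (SE 0.18), and high NH4+ was -0.47 (SE 0.18) from water. The 3 low NH4+ arrays lay below a signal of 100, and with such signals set to 100 the low NH4+ value was -0.58. After median centring it was -0.43 and no longer called (adjusted p = 0.180 in limma). Whether the 2 doses differ did not pass the test, with a difference of 0.32 (SE 0.18) between high and low NH4+.

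The A20 and AN1 zinc finger members, whose domains mark the stress-associated proteins of plants, had high signals. The A20 member had 10.81, 10.68 and 11.21 in water, 10.27, 9.88 and 10.30 in low NH4+ and 10.22, 9.85 and 10.20 in high NH4+ roots. The AN1 member had 11.21, 11.03 and 11.45 in water, 10.71, 10.64 and 10.68 in low NH4+ and 10.52, 10.26 and 10.80 in high NH4+ roots. Both were below water on every NH4+ array. They passed the test in high NH4+ alone, at -0.81 (SE 0.20) for A20 and -0.70 (SE 0.18) for AN1, and the AN1 call was lost after median centring (adjusted p = 0.145 in limma).

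WRKY6-like was the only WRKY member and one of the few that rose. WRKY factors bind the W-box and are known from defence and senescence, and this member was named by likeness to a moss protein. Its signal was 8.37, 8.76 and 8.72 in water, 9.34, 8.92 and 9.14 in low NH4+ and 9.39, 9.92 and 9.63 in high NH4+ roots. The 3 groups did not overlap and followed the dose. The rise on the log2 scale was 1.03 (SE 0.20) in high NH4+, 2.05 times the water signal, and 0.52 (SE 0.20) in low NH4+, which did not pass the test.

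Of the 4 coregulators, 2 passed the test as higher and 1 as lower in high NH4+, where 2.73% and 3.79% of all probe sets did. VIP2-like, similar to an Arabidopsis protein that binds the Agrobacterium protein VirE2, had the largest rise, with 10.55, 11.10 and 9.99 in water, 12.31, 11.99 and 12.40 in low NH4+ and 11.98, 11.93 and 12.17 in high NH4+ roots. The lowest NH4+ array was above the highest water array, and the 2 doses overlapped. Its log2 fold change against water was 1.48 (SE 0.27) in high NH4+ and 1.69 (SE 0.27) in low NH4+, or 2.79 and 3.22 times the water signal. It was the only member that passed as higher in low NH4+.

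BT4-like, similar to an Arabidopsis protein with BTB and TAZ domains, had 8.01, 7.77 and 8.35 in water, 9.14, 8.03 and 8.16 in low NH4+ and 9.00, 9.09 and 9.23 in high NH4+ roots. It was 1.06 (SE 0.29) higher in high NH4+ than in water. In low NH4+ only replicate 1 reached the level of the high NH4+ arrays, and the other 2 replicates lay within the range of water. CIP2b, found in tomato as a partner of the flowering regulator CONSTANS, had 11.57, 11.08 and 11.11 in water, 10.67, 10.88 and 10.91 in low NH4+ and 10.24, 10.50 and 10.64 in high NH4+ roots. Its groups did not overlap and were ordered by dose. Against water the log2 fold change was -0.80 (SE 0.19) in high NH4+, which passed the test but not after median centring (adjusted p = 0.162 in limma), and -0.44 (SE 0.19) in low NH4+, which did not pass.

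GIF3-like, similar to an Arabidopsis coactivator that works with growth-regulating factors, had a signal of 8.97, 8.56 and 8.90 in water, 8.71, 8.76 and 8.32 in low NH4+ and 8.39, 7.83 and 8.03 in high NH4+ roots. It lay just outside the threshold in high NH4+, at -0.73 (SE 0.21, adjusted p = 0.102). Unnamed member Q lay just outside on the higher side, at 0.54 (SE 0.15, adjusted p = 0.101). Just inside were unnamed member K at -0.49 (SE 0.14, adjusted p = 0.0982) and unnamed member J at -0.55 (SE 0.15, adjusted p = 0.0969). In low NH4+ the members nearest the threshold were BPC6-like, SPL1-like, LOS4-like and THM27 inside it (adjusted p = 0.0945 for each) and the A20 member outside it (adjusted p = 0.109). Each of these adjusted p-values comes from limma, and the members on both sides differ little in size.

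In high NH4+ 2 of the 5 chromatin and transcription machinery members passed the test as higher and 1 as lower. In low NH4+ 2 passed as lower. Over all probe sets tested these shares were 2.73%, 3.79% and 2.44%. MBD11-like, similar to an Arabidopsis protein with a methyl-CpG-binding domain, had a signal of 9.80, 9.31 and 9.97 in water, 8.68, 8.60 and 8.74 in low NH4+ and 8.56, 8.24 and 8.89 in high NH4+ roots. It passed the test at both doses, at -1.13 (SE 0.22) in high NH4+ and -1.02 (SE 0.22) in low NH4+, with the 2 doses overlapping. The low NH4+ call was lost after median centring, at -0.66 (adjusted p = 0.115 in limma), and the high NH4+ call was not (adjusted p = 0.0475). The PHD finger member, of a domain that reads histone tails, had 7.49, 7.20 and 7.63 in water, 6.32, 6.56 and 6.71 in low NH4+ and 7.02, 6.87 and 6.76 in high NH4+ roots. Low NH4+ was the lowest group and the only one called, at -0.91 (SE 0.18), beside -0.56 (SE 0.18) in high NH4+, and this call was lost after median centring, at -0.55 (adjusted p = 0.118 in limma).

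The chromatin members that rose are a pair that a table of the study calls nucleosome chromatin assembly factors, named NAF-like A and B here. Proteins of this kind place histones on DNA. NAF-like A had a signal of 7.21, 7.21 and 7.18 in water, 7.09, 6.79 and 6.77 in low NH4+ and 8.39, 8.01 and 7.56 in high NH4+ roots. The high NH4+ arrays were above all others. NAF-like A was the second member called between high and low NH4+, higher in high NH4+ by 1.10 (SE 0.22), and its log2 fold change in high NH4+ against water was 0.78 (SE 0.22). The call between the doses was lost after median centring (adjusted p = 0.145 in limma). NAF-like B had 8.81, 8.83 and 8.60 in water, 8.98, 8.86 and 8.57 in low NH4+ and 9.62, 9.46 and 9.29 in high NH4+ roots. Water and low NH4+ overlapped, and high NH4+ was above both, by 0.71 (SE 0.17) against water.

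SPT4-like, similar to an Arabidopsis factor that helps RNA polymerase elongate, had a signal of 9.75, 9.66 and 9.64 in water, 9.51, 9.31 and 9.37 in low NH4+ and 9.19, 9.34 and 9.04 in high NH4+ roots. The NH4+ arrays were all below the water arrays, though neither -0.49 (SE 0.14) in high NH4+ nor -0.28 (SE 0.14) in low NH4+ passed the test, and the low NH4+ value changed sign after median centring (0.08).

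The class also held 3 members that act on RNA. LX, a tomato ribonuclease known from phosphate starvation and senescence, had a signal of 9.36, 10.60 and 9.96 in water, 8.50, 8.24 and 7.999 in low NH4+ and 8.60, 7.88 and 8.39 in high NH4+ roots. Every NH4+ array was well below every water array. The log2 fold change was -1.69 (SE 0.32) in high NH4+ and -1.73 (SE 0.32) in low NH4+, or 0.311 and 0.302 of the water signal. The related ribonuclease RNALE, which is no member, had 8.80, 10.17 and 8.87 in water, 8.84, 10.78 and 10.34 in low NH4+ and 8.16, 8.92 and 8.88 in high NH4+ roots. RNALE overlapped between all groups and passed the test in no comparison (adjusted p from 0.244 to 0.518 in limma).

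LOS4-like, similar to an Arabidopsis RNA helicase of mRNA export, had 8.28, 8.20 and 8.50 in water, 7.70, 7.08 and 7.54 in low NH4+ and 8.35, 8.03 and 8.03 in high NH4+ roots. It was the only member whose water and high NH4+ arrays overlapped, with a difference of -0.19 (SE 0.20), and it passed the test in low NH4+ at -0.89 (SE 0.20). Its lowest array was low NH4+ replicate 2, and without that array the log2 fold change was -0.71. Its call was lost there, as were those of all members but FER. A protein with PAZ and piwi domains, as Argonaute proteins have, had 9.42, 8.82 and 9.21 in water, 8.49, 8.62 and 7.72 in low NH4+ and 8.09, 8.27 and 8.42 in high NH4+ roots. It lay -0.89 (SE 0.26) from water in high NH4+ and -0.87 (SE 0.26) in low NH4+ and passed the test in neither.

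The log2 fold changes of the 19 members with no named gene ran from -1.30 to 0.90 in high NH4+ against water, with a median of -0.55, beside -0.72 for the 30 named members. Of these 19, 1 passed as higher and 7 as lower in high NH4+, beside 2.73% and 3.79% of all probe sets. In low NH4+ 2 passed as lower, beside 2.44%, and 9 of the 19 passed in no comparison. The study chose the members on these comparisons, so nothing is read from these counts. Unnamed member A, with the lowest fold change of the 19 in high NH4+, had 8.38, 7.67 and 7.61 in water, 6.84, 7.24 and 7.47 in low NH4+ and 6.42, 6.53 and 6.82 in high NH4+ roots, in steps with the dose. Unnamed member H had 8.82, 8.95 and 9.02 in water, 7.70, 6.45 and 7.23 in low NH4+ and 8.26, 8.63 and 7.97 in high NH4+ roots. It was lowest in low NH4+, as FER was, with -1.80 (SE 0.31) there and -0.64 (SE 0.31) in high NH4+. Without low NH4+ replicate 2 its log2 fold change in low NH4+ was -1.46, and its call was lost, as were those of all members but FER. Unnamed member R was called higher in high NH4+, at 0.77 (SE 0.16), and its low NH4+ arrays overlapped with water. Unnamed member S had a larger log2 fold change, 0.90 (SE 0.27), and did not pass the test.

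Regulators chosen by gene symbol rather than by response give the setting. The array's annotation gave a symbol of a known transcription regulator for 101 probe sets of 87 genes, of which 60 passed the filter on low signal and 8 are members. Of these 60, 9 passed the test in high NH4+ against water and 5 in low NH4+ against water. Of the 52 tested that are no members, 4 passed in high NH4+ (7.69%, against 6.52% of all probe sets). In low NH4+ 2 of the 52 passed (3.85%, against 2.98%). Taking out the members, which the study chose for their response on these arrays, lowers the shares of the 52. Nothing is therefore read from these shares against those of all probe sets. In high NH4+ CBF1, JA2 and EIL3 were lower. They were left out of the members by rule, but they too are on the study's list of responding probe sets. The DNA methyltransferase MET1 passed as higher, a call that was lost after median centring. Its signal was below 100 on all water and all low NH4+ arrays, so no fold is given. In low NH4+ a CIP2a probe set was lower, with a log2 fold change of -1.13 (SE 0.27). The Aux/IAA gene IAA7 also passed as lower there, but its signal was below 100 on all 3 low NH4+ arrays and on 2 of the 3 water arrays, so no fold is given. A second CIP2a probe set was -0.06 from water there and did not pass. The median log2 fold change of these 52 was -0.21 in high NH4+ and -0.22 in low NH4+ against water, beside -0.35 and -0.26 over all 60. Both medians of the 52 moved with the scaling. Median centring gave -0.096 and 0.14, and quantile scaling gave -0.12 and 0.02.

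Of the 52 regulators that are no members, 38 were lower in high NH4+ than in water (73.08%, beside 57.5% of all probe sets). After median centring 30 were lower (57.69%, beside 46.4%). The range of their values differed by family. The genes in this paragraph were named after their values were seen. The 4 WRKY probe sets had log2 fold changes in high NH4+ against water from -0.50 (WRKYIId-1) to 0.01 (WRKYIId-4), while the member WRKY6-like was higher. The 12 AP2/ERF probe sets ran from -2.18 (CBF1) to 1.49 (ERF-H1), and CBF1 alone passed the test. The 6 bZIP probe sets, beside the members GBF12 and NIF1, ran from -1.30 (abz1) to 0.02 (vsf-1). No WRKY or bZIP probe set among these passed in any comparison. The abz1 signal was below 100 on all high NH4+ arrays and on water replicate 2, and that of CBF1 on high NH4+ replicates 2 and 3. This limits their fold changes.

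**Figure D5:**
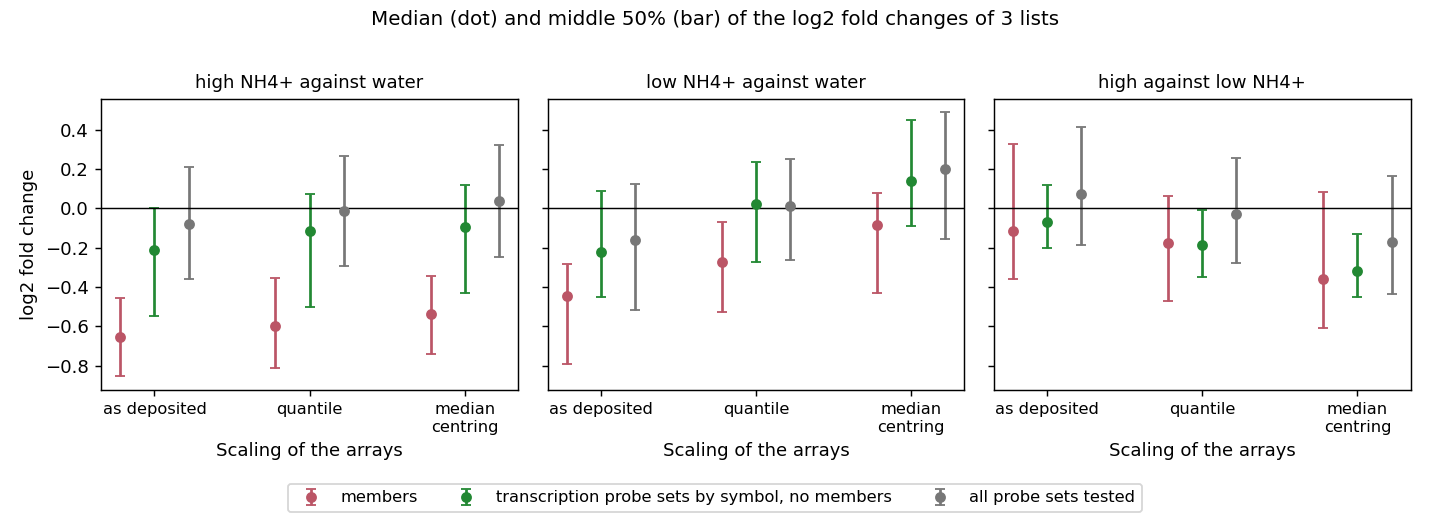
Median (dot) and middle 50% (bar) of the log2 fold changes of the 49 members, of the 52 transcription probe sets by symbol that are no members, and of all 6670 probe sets tested, in the 3 comparisons and under 3 scalings of the arrays. In high NH4+ against water the members' median stays between -0.65 and -0.54, and in low NH4+ against water it moves to -0.085 after median centring, where the medians of the other 2 lists are above 0.

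The spread among replicates also followed single arrays. Of the 40 members with a lower mean in high NH4+ than in water, 31 had their lowest water value on water replicate 2, and 25 had their highest high NH4+ value on high NH4+ replicate 3. Among all probe sets tested, 44.6% were lowest of the water arrays on water replicate 2, and 33.3% were highest of the high NH4+ arrays on high NH4+ replicate 3. The 2 groups were thus closest on these arrays for most members. Leaving out water replicate 2 raised the number of members called in high NH4+ to 35. Leaving out high NH4+ replicate 3 lowered it to 21. With 3 arrays a group, the precision of each value is limited.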

How the data were processed

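RNA from tomato patch roots was hybridized to 9 Affymetrix tomato arrays, 3 per treatment. The authors scaled and summarised the probes of each array with MAS5 (Affymetrix Expression Console) and deposited natural log signals. No version is given in the sources used here. Deposited values were divided by 0.693 to give log2, with no other normalization. Of 10209 probe sets, 171 controls were left out, and the 6670 with a signal of at least 100 on at least 1 array were tested, after the study's methods. No depth exists for arrays.

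The 3 treatments were fitted together with limma 3.58.1 in R 4.3.3 (6 residual and 2.87 prior degrees of freedom), with Benjamini-Hochberg adjustment within each comparison and a threshold of 10%. On simulated data for high NH4+ against water (20 simulations, 6670 probe sets) 57.4% of the changes of 2-fold and 90.5% of those of 4-fold were found, and 11.4% of calls were false. The simulated noise was independent between probe sets. It lacked the variation that the real arrays share across probe sets, so these rates may not hold for the real data. Tables were made in Python 3.11.15 with pandas 2.3.3 and numpy 2.4.6.

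Members were matched by probe set to the functional classes of the study's supplementary list, whose own fold changes and p-values were not used. Gene names came from that list and other tables of the study, the array annotation and RefSeq, which gave a symbol for 9 members. The members and lists were chosen with earlier results of these data known. Full values are given for each member with a named gene or family and for the 10 called members of largest change in each comparison. The list of regulators by symbol was written after the annotation's symbols had been seen. It stands in for name patterns, since titles were at hand only for genes of the study's list. Alternatives were other filters, scalings and floors, the methods' test (run per probe set), limma-trend, fits of only 2 groups, a replicate block, a threshold of 5% and leaving out arrays.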

Additional observations from a re-analysis of the deposited data

How the results depend on the processing

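The number of members called moved with most settings, and the cause was not tested. In high NH4+ against water, where 29 were called, limma called 8 with no filter, 19 after median centring, 46 with signals under 100 set to 100, 8 at a rate of 5%, 4 without both low NH4+ replicate 2 and water replicate 3, and 0 to 36 on leaving out 1 array, and the methods' test called 12. In low NH4+ against water, where 13 were called, the counts were 4 with no filter, 5 after median or quantile scaling, 1 with only the 2 groups compared, 1 at a rate of 5%, 0 without both arrays and 1 to 18 on leaving out 1 array. The methods' test called 0 there, with 31 members at an unadjusted p under 0.05. In high against low NH4+, where 2 were called, 1 was called with the floor and 0 with no filter, after either scaling, by the methods' test, with only the 2 groups compared, at a rate of 5% and without both arrays, and 0 to 7 on leaving out 1 array. Of the calls in high and low NH4+ against water, 20.7% and 7.69% were higher, and 36.8% and 40% after median centring.

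The transcription probe sets chosen by symbol, members included, gave 9 calls in high NH4+ against water, with 5 under no filter, 3 by the methods' test, 3 at a rate of 5%, 1 without both arrays and 0 to 16 on leaving out 1 array. In low NH4+ against water they gave 5 calls (8.33%, beside 2.98% of all probe sets). The count was 3 under no filter, median centring or the floor, and 1 under quantile scaling, the 2 groups alone or a rate of 5%. It was 0 by the methods' test or without both arrays, and 1 to 11 on leaving out 1 array. In high against low NH4+ they gave 1 call (1.67%, beside 0.9% of all probe sets) and 0 to 3 on leaving out 1 array. The count was 0 under either scaling, the floor, the methods' test, the 2 groups alone, a rate of 5% or without both arrays. Without the members, which the study chose by response, the shares called in the 3 comparisons were 7.69%, 3.85% and 0.0%.

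The members' median log2 fold change kept its sign under all these settings. It was -0.65 in high NH4+ against water, -0.54 after median centring and -0.73 to -0.59 on leaving out 1 array. In low NH4+ against water it was -0.45, -0.27 after quantile scaling, -0.085 after median centring and -0.63 to -0.39 on leaving out 1 array. In high against low NH4+ it was -0.11, -0.36 after median centring and -0.15 to -0.04 on leaving out 1 array. None of the 44 called values of single members changed sign under any setting. Of these 44, 43 stayed called with limma-trend, 31 after quantile scaling, 22 after median centring and 4 without both arrays.

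The plants were grown in a block design, but the study's array model holds no block and the sources do not tie the replicate number of an array to a block. Deviations of arrays with the same number correlated between -0.38 and 0.35, so the data show no pairing, and whether the number marks a block is not known. With the replicate number as a block, 11 members were called in high NH4+ against water, 12 in low NH4+ against water and 0 in high against low NH4+, where the probe sets chosen by symbol gave 4, 4 and 0 calls. Of the members, 12 lay below a signal of 100 on at least 1 array, and 4 on all 3 arrays of a group (AP2-like and NAP-like in high NH4+, FER and SPL1-like in low NH4+), which limits their fold changes.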
